A study of Mus musculus with 6 samples.

Results

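The genes described here are 10 genes of the fetal liver and of imprinted growth control: Afp, H19, Igf2, Dlk1, Gpc3, Mest, Peg3, Plagl1, Cdkn1c and Zbtb20. They were chosen by name and found by matching the symbol in each library's expression table. Of the 10 genes, 9 were listed in at least 1 library among the 18253 symbols of the study, and Dlk1 was listed in none. The study sequenced liver RNA of C57BL/6 mice with cholestasis, a block of bile flow, caused by ANIT (alpha-naphthylisothiocyanate, a compound toxic to bile duct cells). The 3 ANIT libraries came from mice given ANIT without celastrol, and the 3 celastrol libraries from mice given ANIT with celastrol, a plant triterpenoid, over a course of 5 days. The labels give postnatal day 21 as the age in both groups. ANIT was shared by all 6 libraries, so there was no untreated liver, and doses were not stated. The labels do not say that the 3 libraries of a group came from separate animals, so p-values measure the spread between these libraries, which may be technical.

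Afp encodes alpha-fetoprotein, the main plasma protein of the fetus, made by fetal hepatocytes and shut down after birth. Most of the other genes are imprinted, meaning that only the copy from the mother or only that from the father is used. They belong to a network that controls growth before birth, in which some genes promote and others restrain it. The network is turned down in the weeks after birth. Afp and H19 can rise again in injured or regenerating liver and in liver tumours. Zbtb20 differs from the rest: it encodes a zinc finger repressor that increases after birth and shuts Afp down, so it is not itself a gene silenced with age.

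Depth, estimated from the steps between low values, was 18940000 to 19840000 reads per library, so 1 FPKM (a unit of fragments scaled to gene length and library size) over 1 kilobase stands for 18.9 to 19.8 reads. Short genes well below 1 FPKM therefore rest on few reads. The depth estimate is rough. The fit of low values to whole reads scored 0.212 to 0.288 at the depths chosen and 0.0858 to 0.146 at the next best ones. Of the 10593 genes that reached 1 FPKM in 3 or more libraries, 2652 passed limma's test at an adjusted p under 0.05 (Benjamini-Hochberg), 467 higher and 2185 lower with celastrol, and the median difference was -0.17 on the log2(FPKM + 1) scale. Leaving out ANIT replicate 1, 2 or 3 gave 1485, 1166 or 1744 such genes, and leaving out celastrol replicate 1, 2 or 3 gave 1117, 3810 or 1677. Rescaling moved the split to 800 higher and 1163 lower with median-ratio factors and to 864 higher and 965 lower with quantile normalization. Celastrol replicate 2 stood apart in skeletal muscle transcripts: the summed level of 8 muscle markers was 31.4 FPKM there and 0.17 to 1.02 FPKM in the other 5 libraries. Its top 10 genes made up 20.7% of all FPKM, against 33.2% and 31.5% in celastrol replicates 1 and 3 and 20.3% to 21.9% with ANIT. The tissue label was checked against 11 hepatocyte markers, all of which were listed, with summed levels of 61266 to 76371 FPKM with ANIT and 42661 to 46517 FPKM with celastrol. Without Alb, the other 10 summed to 31734 to 37715 FPKM with ANIT and 36466 to 38553 FPKM with celastrol. Of the 11 markers, 1 passed limma's test as higher (Fgb, a fibrinogen chain) and 1 as lower (Alb).

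All 9 listed genes were scarce in these livers. Their mean levels lay between the 20.1 percentile (Igf2) and the 44.7 percentile (Peg3) of all symbols, and Igf2, Gpc3, Mest and Plagl1 stayed below 1 FPKM in every library. The groups did not overlap for 5 of the 9 genes: Gpc3, Peg3 and Cdkn1c were higher in every celastrol library, and Afp and Zbtb20 were lower in every one. Over all symbols the groups did not overlap for 31.5%, with 7.39% higher and 24.1% lower with celastrol. Only Afp, Peg3 and Zbtb20 passed the filter of 1 FPKM in 3 libraries, and Afp and Zbtb20 did so through their ANIT libraries alone. Of these, Afp (lower) and Peg3 (higher) passed limma's test, where 25.0% of all tested genes did, 4.41% higher and 20.6% lower. Without the filter, Afp was the only one of the 9 to pass, against 11.4% of all 18253 symbols. In whole liver RNA, fewer cells of a type and less RNA per cell cannot be told apart.

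**Figure D1:**
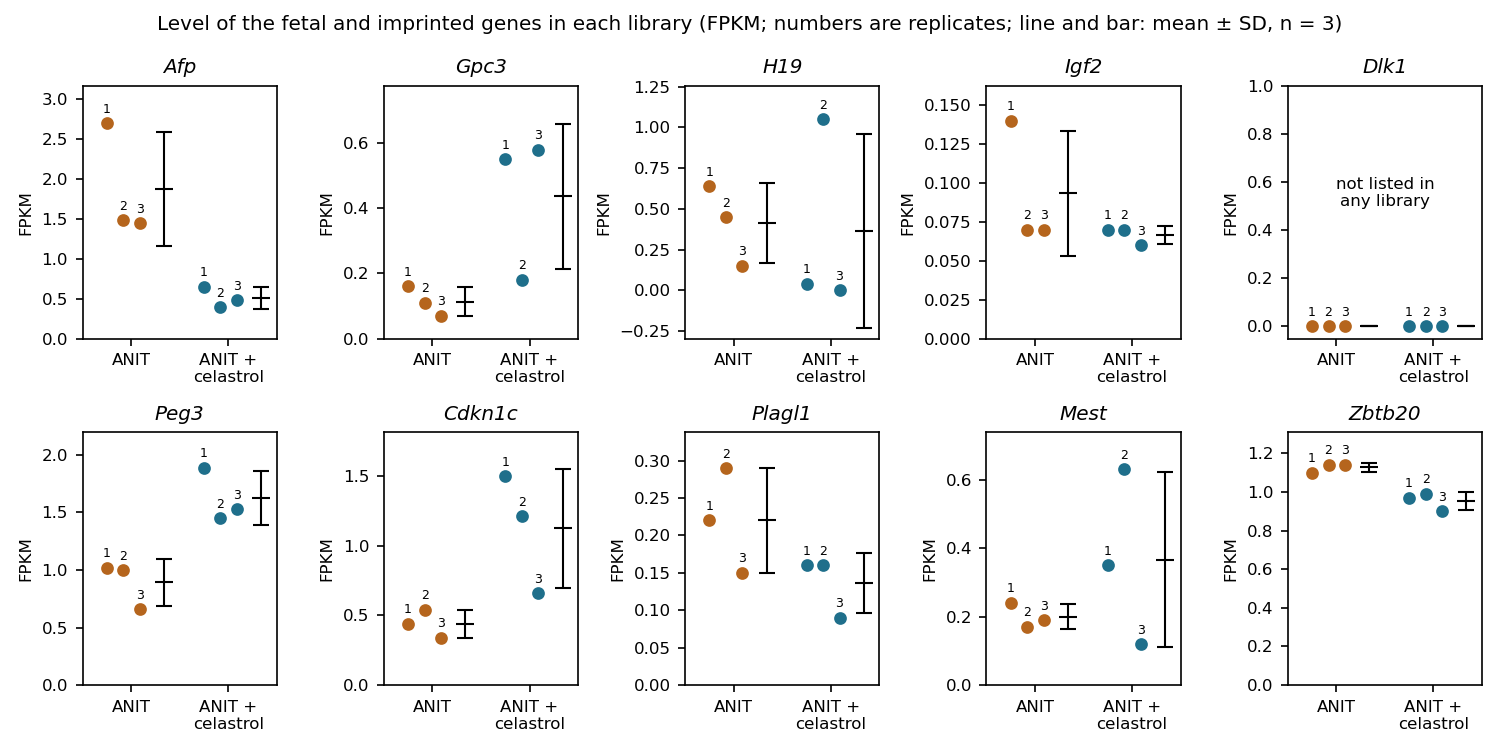
Level of each gene in FPKM (vertical axis) in the 3 ANIT and the 3 ANIT plus celastrol libraries (horizontal axis); points are libraries, numbers are replicates, and the bar is the mean ± SD. Afp is lower in all 3 celastrol libraries (0.39 to 0.65 FPKM) than in any ANIT library (1.44 to 2.69 FPKM), Peg3, Cdkn1c and Gpc3 are higher, and the SD bar of H19 runs below 0 because celastrol replicate 2 alone is high.

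Afp fell with celastrol. It lies on chromosome 5 at 90490737 to 90508907 (plus strand, mouse build GRCm38, also called mm10). Its level was 2.69, 1.48 and 1.44 FPKM in ANIT replicates 1, 2 and 3, and 0.65, 0.39 and 0.48 FPKM in celastrol replicates 1, 2 and 3. On its longest transcript (2063 bases) these are about 105, 59 and 59 reads with ANIT and 26, 16 and 20 reads with celastrol. The lowest ANIT library was above the highest celastrol library, and ANIT replicate 1 stood above the rest of its group. The means were 1.87 ± 0.710 and 0.507 ± 0.132 FPKM (SD, n = 3 each), a 3.69-fold lower level with celastrol. The difference was -0.91 on the log2(FPKM + 1) scale (SE 0.18, limma adjusted p = 0.0121), and -0.85 without celastrol replicate 2 (limma adjusted p = 0.0218). With any 1 ANIT library left out, Afp had too few libraries at 1 FPKM to pass the filter and was read in the fit without it. In that fit the call was lost without ANIT replicate 2 (limma adjusted p = 0.0576).

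Afp sits beside Alb, Afm and Gc, its paralogs of the albumin gene cluster, and these were looked at after their values were known. Alb, which encodes serum albumin and takes over from Afp around birth, was at 29351, 29532 and 38656 FPKM in the ANIT libraries and at 5341, 10051 and 5563 FPKM in the celastrol libraries. Alb thus fell too, by 4.65-fold (difference -2.27 on the log2 scale, SE 0.29, limma adjusted p = 0.00239). Gc, the vitamin D-binding protein, did not follow: it was at 3019, 3267 and 3550 FPKM in the ANIT libraries and 3804, 4023 and 3960 FPKM in the celastrol libraries, a difference of 0.26 that did not pass (limma adjusted p = 0.247) and was -0.10 after quantile normalization. Afm, afamin, was at 68.1, 109 and 120 FPKM in the ANIT libraries and 46.7, 87.6 and 27.2 FPKM in the celastrol libraries, groups that overlapped (difference -0.98, limma adjusted p = 0.143). Without celastrol replicate 2, Afm passed at -1.41 (limma adjusted p = 0.0255).

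The promoters of Afp and Alb are shown because both genes of the cluster were lower in every celastrol library. Each window holds 250 bases before and 50 bases after the RefSeq start on GRCm38.p6. It was searched on both strands for GTTAATNAT, a form of the site of the hepatocyte factor HNF1, and for TATAAA, the TATA box, and matches are in capitals. These are chr5:90490464-90490763 for Afp and chr5:90460620-90460919 for Alb, both on the plus strand and read 5′ to 3′.
Afp: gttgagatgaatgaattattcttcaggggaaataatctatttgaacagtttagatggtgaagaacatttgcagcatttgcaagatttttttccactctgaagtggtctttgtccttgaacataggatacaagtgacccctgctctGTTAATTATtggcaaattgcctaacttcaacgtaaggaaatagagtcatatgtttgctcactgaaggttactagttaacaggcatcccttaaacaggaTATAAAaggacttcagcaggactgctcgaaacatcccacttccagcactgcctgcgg
Alb: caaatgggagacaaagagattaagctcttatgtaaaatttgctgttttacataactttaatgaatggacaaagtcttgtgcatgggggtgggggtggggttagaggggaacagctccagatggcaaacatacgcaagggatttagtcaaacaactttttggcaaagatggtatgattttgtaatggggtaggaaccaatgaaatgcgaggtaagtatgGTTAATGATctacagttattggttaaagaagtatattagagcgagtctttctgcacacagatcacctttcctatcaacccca
The HNF1-type match begins 105 bases before the start in Afp and 32 bases before it in Alb. It occurs in 263 of the 32851 RefSeq windows of this length (0.801%). TATAAA begins 7 bases before the RefSeq start of Afp, which lies 23 bases before the start given by GENCODE, and it occurs in 13.6% of windows. The Alb window holds no TATAAA on either strand. A match is a description of these letters only.

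Of 28 transcription and chromatin factors chosen as acting on Afp, H19 or imprinted genes in general, all were listed and 26 passed the filter. With celastrol 3 were higher (11.5% of the 26, against 4.41% of all tested genes) and 2 lower (7.69%, against 20.6%), and their median difference was -0.08 against -0.17 over all tested genes. These factors were chosen with earlier results of these data known, so the shares and median are a description only. Zhx2, the homeobox repressor that sets the adult level of Afp, H19 and Gpc3, was at 3.28, 4.18 and 4.77 FPKM in the ANIT libraries and 3.61, 4.69 and 3.74 FPKM in the celastrol libraries. These groups overlapped fully (difference -0.01, SE 0.14, limma adjusted p = 0.952; the sign turned under median-ratio and quantile scaling, each at 0.13).

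Onecut1, a liver factor active in hepatocytes and developing bile ducts, rose from 1.14 ± 0.540 to 4.54 ± 0.714 FPKM (limma adjusted p = 0.00281). Tbx3, a T-box repressor that promotes growth of liver progenitors, rose from 2.22 ± 0.499 to 6.29 ± 1.15 FPKM (limma adjusted p = 0.00283). Cebpa, a factor of mature hepatocytes, rose from 69.4 ± 7.45 to 136 ± 32.0 FPKM (limma adjusted p = 0.0122). Trp53, the gene of p53, which can repress Afp, fell from 13.3 ± 1.29 to 7.66 ± 0.311 FPKM (limma adjusted p = 0.00363; SD, n = 3 each throughout). These 4 calls held in all 14 alternative settings. Hnrnpu, an RNA-binding protein, was lower by 0.46 on the log2 scale (limma adjusted p = 0.0407), a call lost in 8 of the 14.

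**Figure D2:**
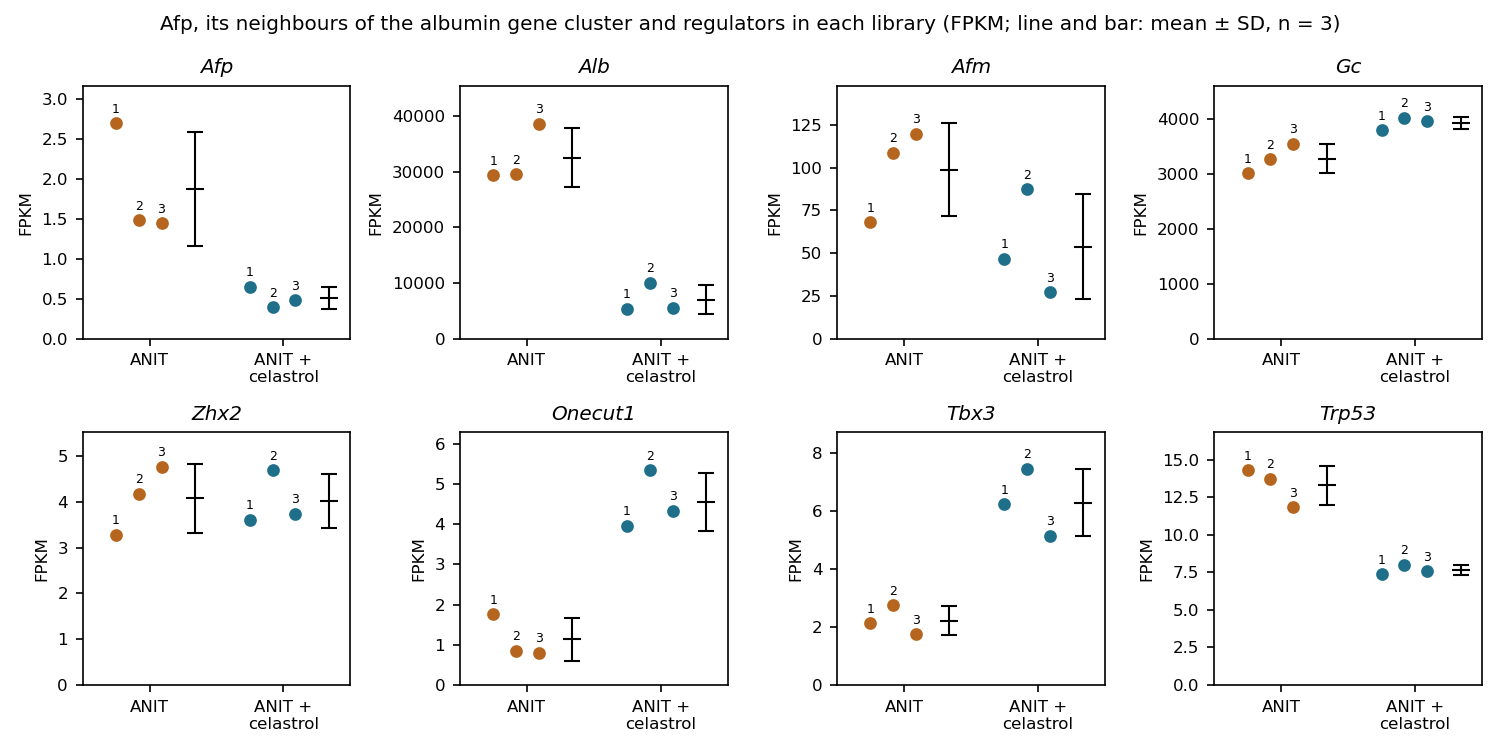
Level in FPKM (vertical axis) of Afp, 3 genes of the albumin cluster and 4 regulators in the 3 ANIT and 3 ANIT plus celastrol libraries; points are libraries and the bar is the mean ± SD. Afp, Alb and Trp53 are lower and Onecut1 and Tbx3 higher in every celastrol library, while the groups overlap for Zhx2 and Afm and the 3 celastrol values of Gc lie above those of ANIT without passing the test.

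Zbtb20, the repressor of Afp, hardly differed. It lies on chromosome 16 at 42875881 to 43642602 (plus strand) and was at 1.10, 1.14 and 1.14 FPKM in the ANIT libraries and 0.97, 0.99 and 0.90 FPKM in the celastrol libraries. Every celastrol library was slightly below every ANIT library. The difference of -0.12 (SE 0.10, limma adjusted p = 0.404) was close to the median of all tested genes (-0.17), and with median-ratio scaling it was -0.03.

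Gpc3 was higher in each celastrol library than in any ANIT library, the opposite order to Afp. It encodes glypican-3, a heparan sulfate proteoglycan at the cell surface that restrains fetal growth, is shut down in liver after birth and is a marker of liver cancer. It lies on chromosome X at 52272426 to 52613950 (minus strand). Its level was 0.16, 0.11 and 0.07 FPKM in the ANIT libraries and 0.55, 0.18 and 0.58 FPKM in the celastrol libraries. Celastrol replicate 2 was close to the ANIT libraries and the other celastrol libraries were well above them. On the longest annotated transcript (2216 bases) these values stand for about 7, 5 and 3 reads with ANIT and 24, 8 and 25 reads with celastrol. The means, 0.113 ± 0.0451 and 0.437 ± 0.223 FPKM (SD, n = 3 each), differed 3.85-fold, and the difference of 0.36 (SE 0.12) did not pass in the fit without the filter (limma adjusted p = 0.101). Without celastrol replicate 2, it passed at 0.49 (limma adjusted p = 0.00922).

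Peg3 rose with celastrol. It is a paternally expressed gene of a zinc finger protein that acts in growth and in cell death under stress, on chromosome 7 at 6703892 to 6730431 (minus strand). Its level was 1.02, 1.0 and 0.66 FPKM in the ANIT libraries and 1.89, 1.45 and 1.53 FPKM in the celastrol libraries. All 3 celastrol libraries lay above all 3 ANIT libraries, and ANIT replicate 3 was the lowest. The means were 0.893 ± 0.202 and 1.62 ± 0.234 FPKM (SD, n = 3 each), a 1.82-fold higher level with celastrol (difference 0.47, SE 0.13, limma adjusted p = 0.0349). Without celastrol replicate 2 it was 0.52 (limma adjusted p = 0.0319). The call was lost without the filter (limma adjusted p = 0.053) and without any of the other 5 libraries in turn, ANIT replicates 1, 2 and 3 and celastrol replicates 1 and 3 (limma adjusted p = 0.0543 to 0.127).

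Gpc3 and Peg3 are the genes higher with celastrol that have a promoter entry, and their windows are shown for their CpG content; methylation of CpG at the Peg3 start marks its silent maternal copy. CpG dinucleotides are in capitals. The windows are chrX:52613925-52614224 for Gpc3 and chr7:6730370-6730669 for Peg3, both on the minus strand of GRCm38.p6 and read 5′ to 3′ along the gene.
Gpc3: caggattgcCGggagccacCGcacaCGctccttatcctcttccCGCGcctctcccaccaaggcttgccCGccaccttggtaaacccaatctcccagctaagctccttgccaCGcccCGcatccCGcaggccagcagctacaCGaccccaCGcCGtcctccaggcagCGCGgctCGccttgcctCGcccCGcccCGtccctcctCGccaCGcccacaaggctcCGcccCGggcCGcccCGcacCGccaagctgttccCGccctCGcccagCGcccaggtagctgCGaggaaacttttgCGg
Peg3: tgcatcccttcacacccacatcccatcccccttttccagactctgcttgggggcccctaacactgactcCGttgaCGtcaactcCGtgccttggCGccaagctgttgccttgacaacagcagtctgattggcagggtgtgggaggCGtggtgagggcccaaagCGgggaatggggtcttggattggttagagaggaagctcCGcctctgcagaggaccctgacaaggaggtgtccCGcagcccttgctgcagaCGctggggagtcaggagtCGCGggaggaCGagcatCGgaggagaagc
The Gpc3 window holds 30 CpG and the Peg3 window 13, against a median of 7 over all windows and 3 in each of the Afp and Alb windows. Neither window holds GTTAATNAT or TATAAA. The 4 windows shown were picked by the direction of their genes. Among genes with a difference below 0, the window of Plagl1 holds 26 CpG, those of Igf2 hold 2, 14, 24 and 7, and that of Zbtb20 holds 3. Mest, with a difference above 0, has windows of 8 and 17 CpG. Methylation was not measured here.

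Cdkn1c, which encodes the cell cycle inhibitor p57, was higher in each celastrol library. It is expressed from the maternal copy, on chromosome 7 at 143458339 to 143461050 (minus strand). Its level was 0.44, 0.54 and 0.34 FPKM in the ANIT libraries and 1.5, 1.21 and 0.66 FPKM in the celastrol libraries. Celastrol replicate 3 lay nearest to the ANIT libraries. On the longest transcript (1901 bases) the values stand for about 16, 20 and 13 reads with ANIT and 56, 45 and 25 reads with celastrol. The means were 0.44 ± 0.1 and 1.12 ± 0.427 FPKM (SD, n = 3 each), a 2.55-fold difference that did not pass (0.54, SE 0.16, limma adjusted p = 0.0776). Without celastrol replicate 3 it passed at 0.71 (limma adjusted p = 0.0310), and without celastrol replicate 2 it did not (limma adjusted p = 0.127). An antisense gene, Gm44732, shares 625 exon bases with Cdkn1c, and the strand setting of the counts is not given in the sources used here.

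Of 20 cell cycle genes, all listed, 14 had a difference above 0 and 6 below. The groups did not overlap for 5 that were higher (Mki67, Ccnb1, Ccna2, Plk1 and Birc5) and 1 that was lower (Ccnd1). Over all symbols the groups did not overlap for 7.39% that were higher and 24.1% that were lower. Of the 20, 6 passed the filter, none of them among those 5, and only Ccnd1 passed the test. Ccnd1, the gene of cyclin D1, which drives cells into the cycle, was at 37.1, 20.0 and 26.9 FPKM in the ANIT libraries and 1.75, 1.98 and 1.93 FPKM in the celastrol libraries (14.8-fold lower, limma adjusted p = 0.000219). Mki67, a marker of dividing cells, was at 0.18 FPKM or less in every library (0.0533 ± 0.00577 against 0.12 ± 0.0529 FPKM, SD, n = 3 each, limma adjusted p = 0.187). In the fit without the filter, Ccna2 (0.2 against 0.5 FPKM) and Birc5 (0.56 against 1.31 FPKM), both genes of dividing cells, were higher with celastrol (limma adjusted p = 0.0331 and 0.0403).

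**Figure D3:**
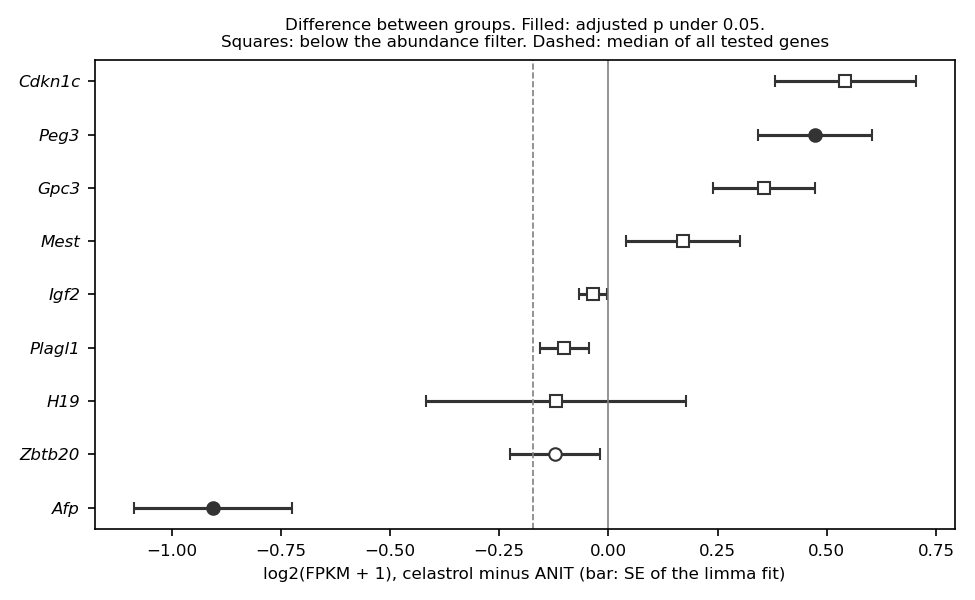
Difference between the groups on the log2(FPKM + 1) scale, celastrol minus ANIT (horizontal axis), for the 9 listed genes (vertical axis); bars are the SE of the limma fit, filled points passed at an adjusted p under 0.05, and squares are genes below the abundance filter. Afp (-0.91) and Peg3 (0.47) are the filled points, and Zbtb20 lies near the dashed median of all genes past the filter (-0.17). The squares, H19 and Plagl1 among them, come from the fit without the filter, where the median was -0.04.

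H19 and Igf2, neighbours under shared imprinting control, gave no difference that passed. H19, a long non-coding RNA expressed from the maternal copy, lies on chromosome 7 at 142575529 to 142578143 (minus strand). It was at 0.64, 0.45 and 0.15 FPKM with ANIT, at 0.04 and 1.05 FPKM in celastrol replicates 1 and 2, and was not listed in celastrol replicate 3. The highest and the lowest library were thus both of the celastrol group (difference -0.12, SE 0.30, limma adjusted p = 0.835). On its longest transcript (2286 bases) these are about 28, 20 and 7 reads with ANIT and 2, 47 and 0 reads with celastrol. Without celastrol replicate 2 both celastrol libraries lay below all ANIT libraries, at -0.46, which did not pass (limma adjusted p = 0.0910). Without celastrol replicate 1 or 3 the sign turned (0.03 and 0.06).

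The library with the most H19 was also the one with skeletal muscle transcripts. All 8 muscle markers peaked in celastrol replicate 2. Acta1, skeletal muscle actin, was at 8.48 FPKM there and at 0.07 FPKM or less elsewhere. Ckm, muscle creatine kinase, was at 4.17 FPKM there and at 0.04 FPKM or less elsewhere. Myh1, a fast myosin heavy chain, was at 2.47 FPKM there and listed in no other library. H19 is known to stay on in adult skeletal muscle. The part of muscle RNA in the H19 value was not tested.

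Igf2, the paternally expressed gene of insulin-like growth factor 2, the main growth factor of the fetus, lies on chromosome 7 at 142650766 to 142666816 (minus strand). It was at 0.14, 0.07 and 0.07 FPKM in the ANIT libraries and 0.07, 0.07 and 0.06 FPKM in the celastrol libraries. Apart from ANIT replicate 1 the libraries differed by 0.01 FPKM at most. On its longest transcript (4722 bases) all values stand for about 6 to 13 reads, and the difference was -0.03 (SE 0.03, limma adjusted p = 0.543). Gm49394, a gene on the same strand, shares 3596 exon bases with Igf2, so reads of the pair could be split between them.

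Mest, a paternally expressed gene of an alpha/beta hydrolase-fold protein, was also highest in celastrol replicate 2. It lies on chromosome 6 at 30723547 to 30748465 (plus strand). Its level was 0.24, 0.17 and 0.19 FPKM in the ANIT libraries and 0.35, 0.63 and 0.12 FPKM in the celastrol libraries, where the celastrol libraries spanned the ANIT range (difference 0.17, SE 0.13, limma adjusted p = 0.470). Without celastrol replicate 2 the difference was 0.04 (limma adjusted p = 0.827). Ndn, the imprinted gene of necdin, was highest in the same library as well, at 0.37 FPKM against 0.03 to 0.18 FPKM in the others (difference 0.12, and 0.01 without that library, limma adjusted p = 0.505 and 0.914). The part of muscle RNA in these values was not tested. Copg2, on the opposite strand, shares 912 exon bases with Mest and was more abundant (5.79 ± 0.355 FPKM in the ANIT libraries and 4.34 ± 0.354 FPKM in the celastrol libraries, SD, n = 3 each), so without a known strand setting the low Mest values are uncertain.

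**Figure D4:**
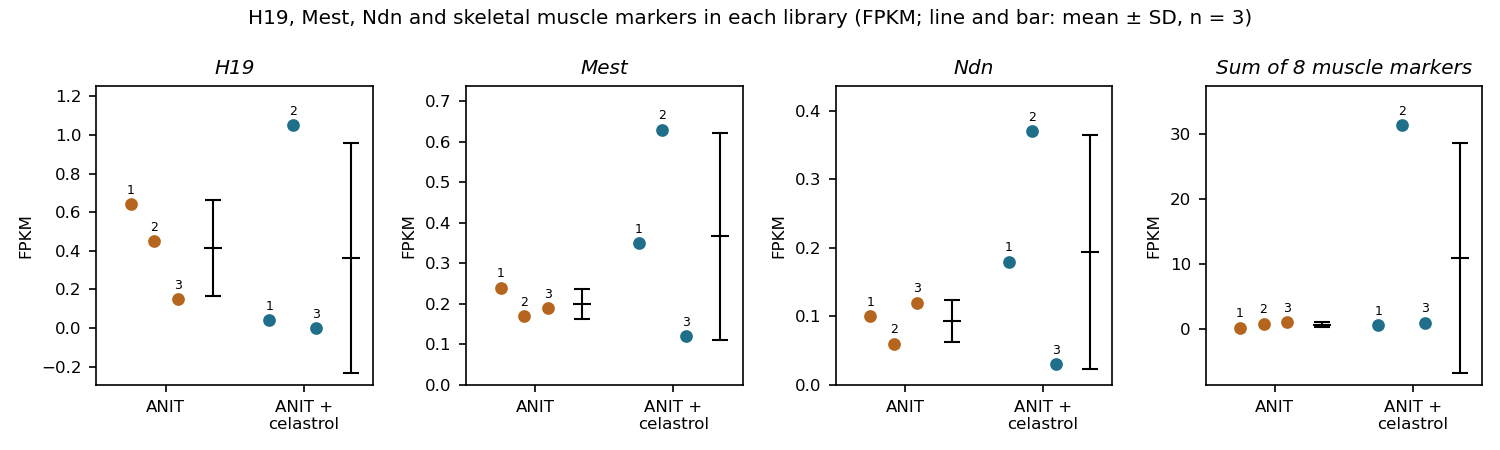
Level in FPKM (vertical axis) of H19, Mest, Ndn and the sum of 8 skeletal muscle markers in the 3 ANIT and 3 ANIT plus celastrol libraries; points are libraries and the bar is the mean ± SD. Celastrol replicate 2 is the highest library in all 4 panels (1.05, 0.63, 0.37 and 31.4 FPKM), and the SD bars of H19 and of the muscle sum run below 0 because of it. Of the 9 listed genes only 2, H19 and Mest, were highest in that library. Genes not particular to muscle peaked there too, such as Cebpa at 171 FPKM.

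Plagl1, a paternally expressed zinc finger factor that activates H19, Igf2 and Dlk1, did not follow any of them clearly. It lies on chromosome 10 at 13060504 to 13131694 (plus strand) and was at 0.22, 0.29 and 0.15 FPKM in the ANIT libraries and 0.16, 0.16 and 0.09 FPKM in the celastrol libraries. The groups overlapped through ANIT replicate 3 (difference -0.10, SE 0.06, limma adjusted p = 0.300).

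Dlk1, the paternally expressed gene of a transmembrane protein that marks fetal hepatoblasts, was not listed in any of the 6 libraries, and was counted as 0. It lies on chromosome 12 at 109452823 to 109463336 (plus strand). The maternally expressed RNAs of the same domain were listed. Meg3 was at 0.25, 0.18 and 0.21 FPKM in the ANIT libraries and 0.44, 0.61 and 0.46 FPKM in the celastrol libraries, all celastrol libraries above all ANIT libraries. Below the filter, Meg3 passed in the fit of all symbols (difference 0.31, SE 0.08, limma adjusted p = 0.0480), and that call was lost when any library was left out (limma adjusted p = 0.0522 to 0.163). Mirg, a microRNA host RNA of the domain that was picked after its values were seen, was at 0.40, 0.21 and 0.31 FPKM in the ANIT libraries and 1.20, 0.51 and 1.51 FPKM in the celastrol libraries (limma adjusted p = 0.0781). Rian, between them, overlapped fully, at 0.10 to 0.17 FPKM with ANIT and 0.10 to 0.25 FPKM with celastrol (limma adjusted p = 0.756).

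Of 73 genes of imprinted domains outside the 10, called other imprinted genes here, 62 were listed and 31 passed the filter. Which parental copy they were expressed from was not measured. None was higher and 8 were lower with celastrol (limma), 25.8% of those tested, near the 25.0% of all tested genes that passed (20.6% lower), and their median difference was -0.21 against -0.17 over all tested genes. H13, a signal peptide peptidase, was lower by 2.05-fold (58.1 ± 3.77 against 28.4 ± 1.81 FPKM, limma adjusted p = 0.00162). Dhcr7, the last enzyme of cholesterol synthesis, was lower by 2.51-fold (110 ± 6.44 against 43.7 ± 15.9 FPKM, limma adjusted p = 0.00982). Pon3, a paraoxonase of plasma lipoproteins, was lower by 1.47-fold (34.5 ± 1.59 against 23.4 ± 2.20 FPKM, SD, n = 3 each throughout, limma adjusted p = 0.0134). Igf2r, Impact, Sgce, Snrpn and Copg2 were the other lower calls. H13 and Igf2r passed in all 14 alternatives, whereas Dhcr7, Pon3, Impact, Snrpn and Copg2 did not after quantile normalization. The list's count of calls was 13 without celastrol replicate 2, 5 without ANIT replicate 3, and 3 without ANIT replicate 2 or celastrol replicate 1.

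Among low imprinted genes, Peg10, a retrotransposon-derived gene of placenta and liver tumours, fell from 0.22 ± 0.0265 to 0.06 ± 0.02 FPKM (SD, n = 3 each), and passed in the fit without the filter (difference -0.20, SE 0.04, limma adjusted p = 0.0162). Peg10 did not pass when ANIT replicate 2 or celastrol replicate 1 was left out (limma adjusted p = 0.0537 and 0.0883). Slc38a4, an amino acid transporter abundant in liver, was at 176 ± 9.01 and 182 ± 47.7 FPKM (limma adjusted p = 0.946), and Grb10, a brake on insulin and growth factor signalling, at 0.587 ± 0.130 and 0.53 ± 0.0889 FPKM (SD, n = 3 each, limma adjusted p = 0.779).

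Genes of the insulin-like growth factor axis, the pathway Igf2 belongs to, had a median difference of 0.36 against -0.17 over all tested genes. Of 23 genes, 22 were listed and 14 passed the filter, of which 3 were higher (21.4%, against 4.41% of all tested genes) and 2 lower (14.3%, against 20.6%). As this list was chosen with earlier results of these data known, its shares and median are a description only. The 5 calls became 3 without ANIT replicate 1 or 2 and 2 without celastrol replicate 1. Igf1, the ligand that the adult liver releases in place of Igf2, was at 41.1, 45.0 and 57.8 FPKM in the ANIT libraries and 71.3, 78.6 and 75.4 FPKM in the celastrol libraries. The groups were apart, and Igf1 rose by 1.56-fold (difference 0.65, SE 0.15, limma adjusted p = 0.0198). Igf1 no longer passed when ANIT replicate 1 or 2 or celastrol replicate 1 was left out (limma adjusted p = 0.0604 to 0.0849).

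Receptors and inhibitors differed among themselves. Igf2r, the receptor that clears IGF2 and is itself imprinted, fell from 6.5 ± 0.896 to 3.92 ± 0.286 FPKM (difference -0.60, SE 0.11, limma adjusted p = 0.00998). Insr, the insulin receptor, rose from 11.5 ± 1.06 to 17.1 ± 1.19 FPKM (limma adjusted p = 0.0128), a call lost without celastrol replicate 1 (limma adjusted p = 0.0581). Igf1r, the receptor through which IGF1 and IGF2 signal, was at 0.15 ± 0.01 and 0.22 ± 0.125 FPKM (limma adjusted p = 0.551). Socs2, an inhibitor of growth hormone signalling, rose 2.56-fold, from 4.34 ± 0.772 to 11.1 ± 2.90 FPKM (limma adjusted p = 0.00735), in all 14 alternatives.

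Binding proteins of the axis were more variable. Igfbp2, a binding protein of fetal serum, was at 130, 120 and 161 FPKM in the ANIT libraries and 18.2, 71.1 and 9.58 FPKM in the celastrol libraries. The groups were apart, but celastrol replicate 2 lay far above the other celastrol libraries, and the call (difference -2.48, SE 0.69, limma adjusted p = 0.0490) was lost in 9 of the 14 alternatives. Without celastrol replicate 2 it was -3.26 (limma adjusted p = 0.00147). Igfbp1, a binding protein that responds to fasting and insulin, was at 162 ± 42.6 and 103 ± 73.6 FPKM (SD, n = 3 each, limma adjusted p = 0.242; difference -0.83). Celastrol replicate 3 alone was within the ANIT range, at 188 FPKM, and without it Igfbp1 was lower by 1.36 on the log2 scale (limma adjusted p = 0.0139).

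Among other genes of fetal liver and of liver progenitors, 7 of the 15 that passed the filter were lower with celastrol (46.7%, against 20.6% of all tested genes) and 1 was higher. Of these 7, 2 passed the filter only through the ANIT libraries, where they were high. Because the list was chosen with earlier results of these data known, its shares and median are a description only. The list held 36 genes, 34 of them listed, and the median difference of the 15 was -0.74 against -0.17 over all tested genes. The 8 calls became 5 without ANIT replicate 1, 3 without ANIT replicate 2 and 4 without celastrol replicate 1. Hmga1, a chromatin protein of proliferating fetal cells, fell from 54.7 ± 4.69 to 11.3 ± 3.19 FPKM (limma adjusted p = 0.000565). Scd2, a fatty acid desaturase of early life, fell from 4.41 ± 0.515 to 1.45 ± 0.0709 FPKM (limma adjusted p = 0.000855). Aldoa, the aldolase of fetal liver and muscle, fell from 87.3 ± 12.5 to 39.3 ± 10.2 FPKM (limma adjusted p = 0.00704), with 51.1 FPKM in celastrol replicate 2, which held muscle transcripts, and the difference went from -1.15 to -1.35 without that library (limma adjusted p = 0.00153). Hmga1, Scd2 and Aldoa passed in all 14 alternatives. Cd24a, Gpi1, Krt19 and Lpl were the other lower calls, and Cd24a and Krt19 passed the filter through their ANIT libraries alone. The 1 higher call was Fetub, the plasma protein fetuin-B, which the adult liver also makes (328 ± 38.0 against 513 ± 16.2 FPKM, SD, n = 3 each throughout, limma adjusted p = 0.0166), and it no longer passed when ANIT replicate 1 or 2 or celastrol replicate 1 was left out.

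**Figure D5:**
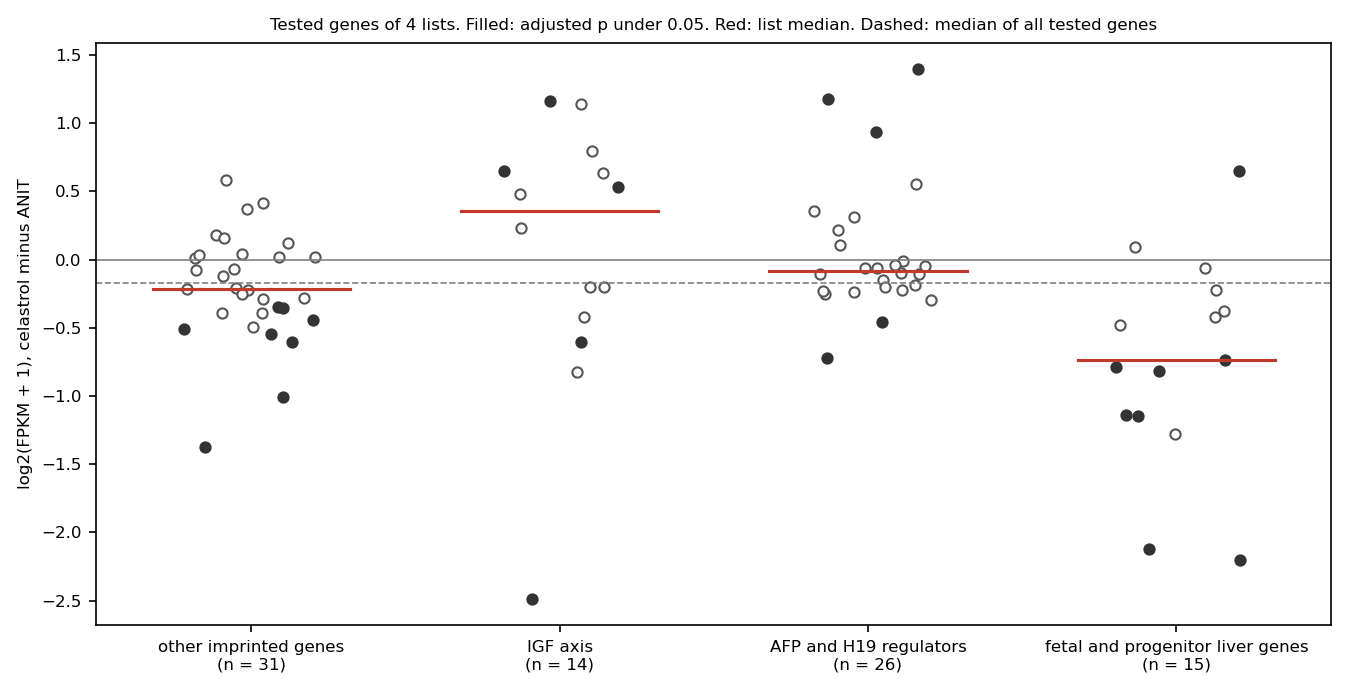
Difference on the log2(FPKM + 1) scale, celastrol minus ANIT (vertical axis), for the tested genes of 4 gene lists (horizontal axis); each point is a gene, filled where the adjusted p was under 0.05, with the list median in red and the median of all tested genes dashed (-0.17). The medians are -0.21 for other imprinted genes and 0.36 for the insulin-like growth factor axis. They are -0.08 for the regulators of Afp, H19 or imprinted genes and -0.74 for fetal and progenitor genes. All 4 lists were chosen with earlier results of these data known.

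Several of the 10 genes are expressed outside hepatocytes, so markers of other cell types were read in the same libraries. Of 8 tested stellate cell and fibroblast markers 0 passed by limma, and the summed level of all 15 was 25.0 to 45.1 FPKM with ANIT and 20.0 to 66.0 FPKM with celastrol. Mesothelial markers summed to 0.48 to 2.23 FPKM with ANIT and 0.42 to 0.75 FPKM with celastrol, with 0 of 8 past the filter and 2 listed in no library; Lrrn4 was lower in the fit without the filter (limma adjusted p = 0.0492). Of 7 tested endothelial markers only Stab2 passed, and it was higher (summed level of all 9 markers 33.1 to 53.6 FPKM with ANIT and 44.8 to 82.7 FPKM with celastrol). The groups did not overlap for 2 of the 9 that were higher (Stab2 and Kdr) and 1 that was lower (Vwf). Over all symbols 7.39% were higher and 24.1% lower without overlap. Of 4 tested cholangiocyte markers only Krt19 was lower (sum of all 10 at 45.2 to 53.4 against 21.6 to 50.7 FPKM), with Spp1 alone at 12.1 to 40.2 FPKM. In the fit without the filter, Cldn7 and Cldn4 were lower as well (limma adjusted p = 0.0195 and 0.0445). The groups did not overlap for 6 of the 10 cholangiocyte markers, all lower with celastrol: Krt19, Krt7, Epcam, Cftr, Cldn7 and Cldn4. Over all symbols 24.1% were lower in this way. All of the 6 but Krt19 were below the filter. Krt19 is also among the fetal and progenitor calls. Of 6 tested erythroid markers only Klf1 passed, and it was higher (sum of 11 listed markers at 230 to 429 against 51.8 to 229 FPKM). The median difference of the 6 was -1.58 against -0.17 over all tested genes. The globin genes Hba-a1, Hba-a2 and Hbb-bs were lower in every celastrol library without passing (limma adjusted p = 0.0541, 0.103 and 0.0808). They were 3 of the 11 listed markers, against 24.1% of all symbols with lower groups that did not overlap. Of 8 macrophage markers, 0 passed (sum at 85.7 to 213 against 151 to 223 FPKM), and pancreatic markers summed to 4.37 to 7.84 FPKM over all libraries. The part of these cell types in the values of the 10 genes was not tested.

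Each of the 3 genes past the filter had close companions across the 6 libraries, taken as the tested genes with the highest Pearson r on the log2(FPKM + 1) scale. For Afp these included Dpp3 (r = 0.996) and Mrps2 (r = 0.994), each highest in ANIT replicate 1. For Peg3 they were Gm4951 (r = 0.994), Dnajc28 and Itga7, each highest in celastrol replicate 1. For Zbtb20 they were Rit1 (r = 0.997), Galnt1 and Akirin1, each lowest in celastrol replicate 3. With 6 libraries from 2 groups chosen out of 10593 genes these values are a description only, and all points share the same libraries.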

How the data were processed

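The deposited values are FPKM, 1 table of gene symbols per library, per the file headers. The reads were processed with HISAT2 and featureCounts on mm10, per the submitters' processing notes. For the FPKM, which annotation, gene lengths and strand setting were used is not given in the sources here, and read numbers per gene are approximate and no count model was run. A symbol not listed was set to 0; 2 names altered into dates and present more than once were left out. Of the symbols, 17576 (96.3%) matched GENCODE M21.

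limma 3.58.1 (R 4.3.3) was fitted to log2(FPKM + 1) of genes that reached 1 FPKM in 3 or more libraries (trend, robust variance, group as the only term, Benjamini-Hochberg adjustment, threshold 0.05). For genes below the filter, the adjusted p comes from the fit of all 18253 symbols. Differences on this scale understate the change of low genes. Folds are ratios of mean FPKM. An exact permutation test of 3 against 3 libraries cannot go below p = 0.1 and was not used. Groups and replicate numbers came from the library titles. The fit was checked on simulated data. The members and lists were chosen with earlier results of these data known. Named were all 10 members, up to 4 tested genes with the smallest p of each list, a set of 11 genes fixed by name, the 3 genes most alike to each member past the filter (1 of those of Afp is not reported here), and genes behind counts of 5 or fewer; the albumin cluster, Mirg, Rian and further genes of larger counts were named after their values were seen. Alternatives were no filter, a filter on the mean of 0.5 FPKM (chosen after seeing the data), a pseudocount of 0.1, non-robust variance, median-ratio scaling, rescaling to TPM, quantile normalization, a replicate block and each library left out. Promoter windows were matched to RefSeq by symbol, and 8 of the 10 members had an entry; H19 and Cdkn1c had none.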

Additional observations from a re-analysis of the deposited data

How the results depend on the processing

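The direction of Afp, Peg3, Zbtb20 and Cdkn1c held in the 14 alternatives and that of Igf2, Gpc3, Mest and Plagl1 in the 13 that could include them (a mean of 0.5 FPKM left them and H19 out). It did not hold for H19, which was -0.46 to 0.062 with a library left out and above 0 without celastrol replicate 1 or 3. Afp lost its call in 1 of 14 alternatives and Peg3 in 6, and Zbtb20 passed in none. With an ANIT library left out, Afp and Zbtb20 fell below the filter and their values came from the fit without it. The counts of Afp and Peg3 thus do not rest on the same fits. Of the 10 genes, 1 passed without the filter, 3 after rescaling to TPM, which brought Cdkn1c past the filter and the test, and 0 to 2 with a library left out. Rescaling to TPM raised the number of genes that passed from 2652 to 4189 (408 higher, 3781 lower) and that of the other imprinted genes from 8 to 15, and the latter was 4 after quantile normalization. The cause was not tested. With a library left out, the number that passed ranged from 1117 to 3810 for all genes, 3 to 13 for the other imprinted genes, 2 to 6 for the insulin-like growth factor axis, 4 to 7 for the regulators and 3 to 9 for the fetal genes. Signs turned, without any test passed, for Pcna (0.0062 with median-ratio scaling, 0.10 with quantile normalization), Zhx2 (0.13 with each; -0.13 to 0.084 with a library left out), Grb10 (0.018 with median-ratio scaling, -0.11 to 0.0090 with a library left out), Slc38a4 (-0.11 with TPM, -0.18 to 0.15 with a library left out) and Gc (-0.10 with quantile normalization). The median of all tested genes moved from -0.17 to -0.02 with median-ratio scaling, 0.01 with quantile normalization and -0.28 with TPM.

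Deviations of same-numbered libraries from their group means gave r = 0.149, 0.231 and -0.0917 across genes, which are not independent. The other pairs gave -0.243 to 0.180. Deviations from a mean of 3 libraries are tied to each other, so these values cannot decide whether the numbers pair the libraries. The main fit used no pairing. With the replicate block 2585 genes passed, 2 of them among the 10 genes. Depth limits Igf2, Gpc3, Plagl1, Mest and H19, which rest on at most about 47 reads in any library. It limits Afp in the celastrol libraries (about 16 to 26 reads) and Cdkn1c in the ANIT libraries (about 13 to 20 reads) as well.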
